A study of Mus musculus with 8 samples.

Results

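The genes described here are 35 members of the tumor necrosis factor (TNF) receptor and TRAF signalling pathway, a named list of 21887 protein-coding genes of the mouse annotation. They comprise 18 receptors, 6 TRAF adaptors, 6 kinases or inhibitor of apoptosis proteins (IAPs) of NF-kB activation and 5 proteins of the TNF receptor 1 and death complex. DNA carrying 5-hydroxymethylcytosine (5hmC) was immunoprecipitated and sequenced (hMeDIP-seq) from germinal center B cells of C57BL/6 mouse spleens, in 2 libraries of TET2 knockout (KO) cells and 2 of TET2 wild-type (WT) cells. Both genotypes have a replicate 2 and a replicate 3 in the labels, and paired values below run in that order. The labels give neither the knockout allele, nor a Cre driver, nor the age of the animals, and whether replicates 2 and 3 are different animals is unstated. Every p-value thus rests on the variation among 4 libraries, part or all of which may be technical. The 4 input libraries were not analysed here. Because the DNA came from bulk populations, fewer cells carrying 5hmC at a site and less 5hmC per cell cannot be told apart. Peaks of 5hmC do not measure gene expression.

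TNF receptors bind trimeric ligands and recruit TRAF adaptors, which are mostly ubiquitin ligases, to start NF-kB signalling, while receptors with a death domain can instead assemble a complex that activates caspases. In germinal center B cells, CD40 receives help from T follicular helper cells, BAFF receptors carry survival signals and Fas removes cells. TET2 oxidizes 5-methylcytosine to 5hmC, a mark found mainly in the bodies and enhancers of active genes.

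Of the 35 genes, 34 had a 5hmC peak in at least 1 library within the gene span plus 2 kb on each side, and Tnfrsf4 had none. No member was called as different between KO and WT in the coverage or the height of its peaks after adjustment over all genes. The same tests called 0% of all genes, so with 2 libraries per genotype a difference in a member is not excluded. At an unadjusted p under 0.05, KO libraries had lower coverage over Tnfrsf1a, Map3k14 and Tnfrsf10b, lower peaks at Tradd and higher coverage over Fadd. Of all genes tested, 2.99% had lower and 1.23% higher coverage at that threshold, and 2.31% had lower peaks. Each of these members' changes was smaller under some other settings, given below with the gene. The authors' deposited table of regions with more 5hmC in WT cells (WT-higher regions) places 28 regions in 18 of the members, and their table of KO-higher regions places 0 there. Among 18310 genes with a peak, 28.3% held a WT-higher region and 0.104% a KO-higher region. In all, the authors listed 24645 WT-higher and 50 KO-higher regions. All 5 receptors for B cell survival and costimulation (Cd40, Cd27, Tnfrsf13b, Tnfrsf13c and Tnfrsf17) held at least 1 WT-higher region, with 9 in all. At a deposited score of at least 5, 2 of the 9 were left, both in Cd40. The region of Tnfrsf17 had no peak in any library.

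The libraries held 270548 to 300954 peaks that covered 110624682 to 139347629 bases, with the least covered length and the lowest median fold enrichment (4.38) in KO replicate 3. The local background recovered from the peaks, an index of depth, was lowest in WT replicate 2 at 8.66 reads, against 10.87 to 11.69 in the others. Markers of germinal center B cells had peaks in 10 of 10 genes, over 15.2 to 39.7% of their windows (median 26.4%). Windows of T cell markers were covered over 0 to 12.6% (median 6.39%), those of myeloid markers over 0 to 14.9% (median 6.34%) and those of erythroid markers over 1.59 to 17.5% (median 2.40%).

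The share of a window covered by peaks, which takes account of gene length, had a median of 7.12% over the 34 members with a peak, averaged over the 4 libraries. The median was 4.68% over all 18310 genes with a peak (5th percentile 0.993%, 95th percentile 15.0%). Tnfrsf13c, the BAFF receptor gene, led the members with 71.1 and 54.9% of its window covered in KO libraries, against 65.5 and 41.3% in WT libraries. Tnfrsf17 (BCMA, a receptor for plasma cell survival) came next with 28.8 and 22.0% in KO and 27.9 and 24.9% in WT libraries. Only this first pair of neighbours in the order stood apart, since in the other 33 of 34 neighbouring pairs the ranges over the 4 libraries overlapped. Receptors for B cell survival and costimulation had the highest median of the roles at 25.6%, followed by the death complex (9.13%), death domain receptors (8.24%), kinases and IAPs (6.64%), T cell costimulation receptors (5.82%), TRAF adaptors (5.34%) and other receptors (4.43%).

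**Figure D1:**
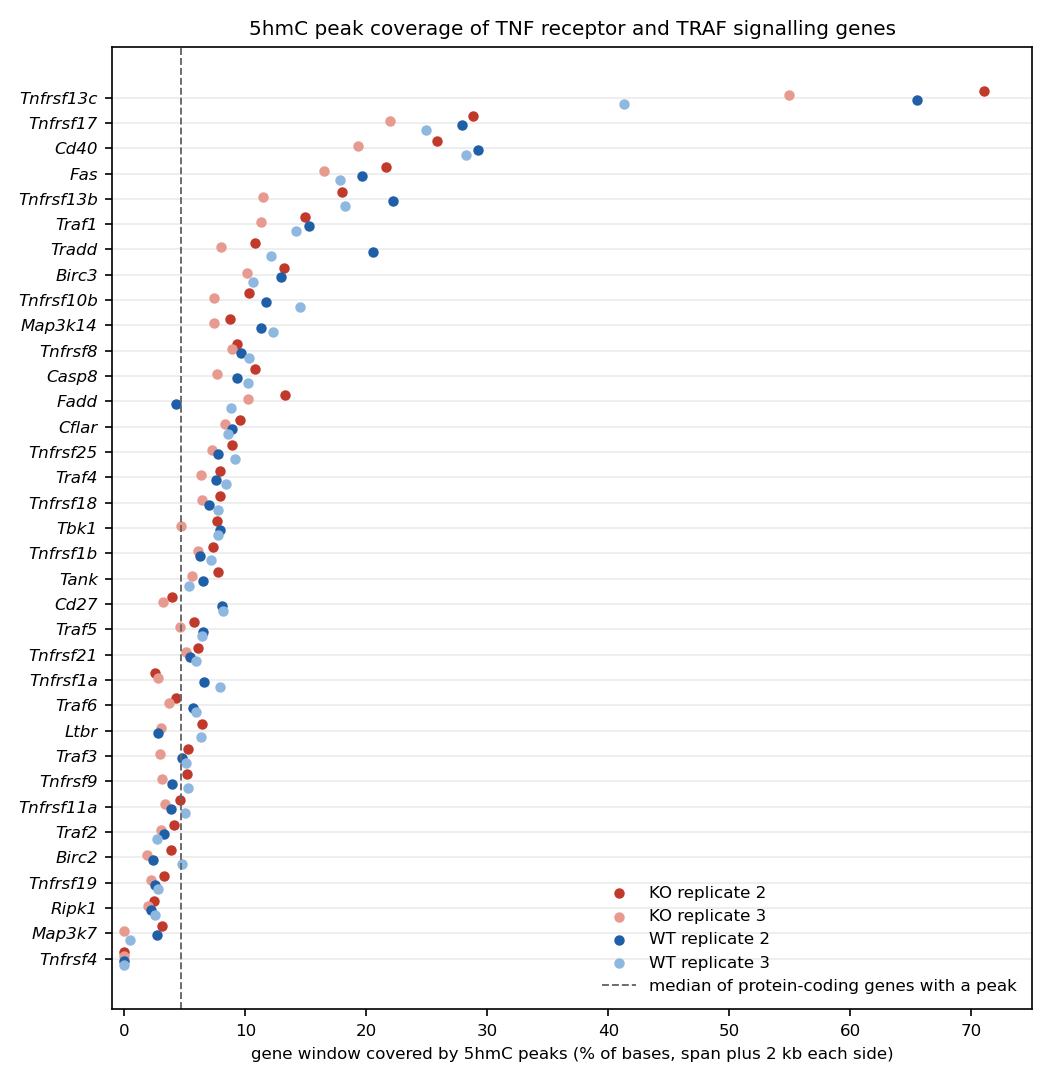
Percent of each member's window (gene span plus 2 kb on each side) covered by 5hmC peaks in each library, with members ordered by their mean and a dashed line at the median of all genes with a peak. The points of KO and WT libraries mostly overlap, and Tnfrsf13c lies above all other members in every library.

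A promoter window of 250 bases before to 50 bases after the start was listed for 32 of the 35 members. Of these, 6 (18.8%) had a peak over it in any library, against 9.03% of 17492 genes. A peak in all 4 libraries was there in 1 of the 32 (3.1%), against 4.20% of genes. Tnfrsf1a, which encodes TNF receptor 1, was the member with a peak there in all 4 libraries, at fold enrichments over local background of 5.98 and 4.89 in KO and 6.52 and 4.89 in WT libraries. Casp8, the initiator caspase of death receptors, had a peak of 6.23-fold in KO replicate 2 and peaks of 6.26 and 5.93-fold in WT libraries. Fadd, the adaptor between death receptors and caspase-8, had peaks of 3.74 and 3.88-fold in KO libraries and of 4.65-fold in WT replicate 3. None of these promoter peaks separated the genotypes, since each gene had one in both. Tnfrsf13b (TACI, a receptor for BAFF and APRIL) had a promoter peak in replicate 2 of each genotype, at 4.30-fold in KO and 3.61-fold in WT. For Tnfrsf8 (CD30) and Birc3 (cIAP2) the peak of KO replicate 2 alone reached into the promoter window, while all 4 libraries had a peak in the merged region that holds it. Those peaks were 10.7 and 8.41-fold in KO and 9.18 and 10.8-fold in WT libraries for Tnfrsf8, and 3.46 and 3.29-fold in KO and 6.11 and 3.15-fold in WT libraries for Birc3. The merged regions at the starts of Casp8 and Tnfrsf13b likewise had a peak in every library. Without KO replicate 2 the number of members with a promoter peak was therefore 4.

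The 250 bases before the start are shown for the 4 members with a promoter peak in at least 2 libraries. Tnfrsf17, whose promoter window overlaps part of a WT-higher region, and Tank, a contrast with no promoter peak, are shown beside them. Tnfrsf17 and Tank were chosen after their values were seen. Sequences are from RefSeq on GRCm38.p6, read 5′ to 3′ on the strand of the gene, and capitals mark CpG, the dinucleotide in which 5hmC mostly lies.
Tnfrsf1a (chr6:125349473-125349722, plus strand): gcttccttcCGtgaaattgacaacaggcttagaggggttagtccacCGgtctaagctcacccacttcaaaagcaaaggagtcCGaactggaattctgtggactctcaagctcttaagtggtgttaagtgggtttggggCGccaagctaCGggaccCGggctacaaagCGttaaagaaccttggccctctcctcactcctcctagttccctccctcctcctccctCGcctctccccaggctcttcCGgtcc
Casp8 (chr1:58802252-58802501, plus strand): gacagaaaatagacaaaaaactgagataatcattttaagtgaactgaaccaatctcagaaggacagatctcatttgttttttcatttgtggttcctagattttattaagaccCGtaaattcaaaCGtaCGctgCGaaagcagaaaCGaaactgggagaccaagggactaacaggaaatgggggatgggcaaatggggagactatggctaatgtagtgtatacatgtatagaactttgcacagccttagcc
Fadd (chr7:144582442-144582691, minus strand): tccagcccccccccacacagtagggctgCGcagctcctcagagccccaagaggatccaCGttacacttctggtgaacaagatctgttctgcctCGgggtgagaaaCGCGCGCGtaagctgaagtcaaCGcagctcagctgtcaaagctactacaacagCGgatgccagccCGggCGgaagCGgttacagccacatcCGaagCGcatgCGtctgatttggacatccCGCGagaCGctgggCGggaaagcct
Tnfrsf13b (chr11:61126505-61126754, plus strand): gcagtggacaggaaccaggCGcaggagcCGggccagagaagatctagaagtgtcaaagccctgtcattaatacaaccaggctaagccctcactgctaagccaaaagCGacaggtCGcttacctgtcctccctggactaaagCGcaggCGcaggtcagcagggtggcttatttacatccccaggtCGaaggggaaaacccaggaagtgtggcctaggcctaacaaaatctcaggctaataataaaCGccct
Tnfrsf17 (chr16:11313559-11313808, plus strand): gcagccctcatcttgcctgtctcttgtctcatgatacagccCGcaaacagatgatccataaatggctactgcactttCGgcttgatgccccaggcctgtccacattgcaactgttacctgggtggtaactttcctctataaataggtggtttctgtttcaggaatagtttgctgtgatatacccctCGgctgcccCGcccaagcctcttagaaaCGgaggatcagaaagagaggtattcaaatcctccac
Tank (chr2:61578307-61578556, plus strand): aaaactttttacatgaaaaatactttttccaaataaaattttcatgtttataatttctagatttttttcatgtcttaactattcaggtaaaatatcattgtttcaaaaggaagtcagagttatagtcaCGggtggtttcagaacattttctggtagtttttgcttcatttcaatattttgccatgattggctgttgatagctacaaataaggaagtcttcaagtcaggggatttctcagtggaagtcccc
These stretches hold 9, 5, 19, 8, 5 and 1 CpG in the order shown. Among 21263 listed promoters, 76.3% had as many CpG as Fadd or fewer, 49.9% as many as Tnfrsf1a or fewer and 15.1% as many as Tank or fewer. Tank lists 4 starts, with 1, 1, 8 and 12 CpG, and the one shown is the most upstream. The 6 member promoters with a peak had a median of 8.5 CpG and the 34 promoters without one a median of 12, where a gene can list several starts. Over all promoters the medians were 8 with a peak (1748) and 10 without one (19515), so members and all genes had the same order.

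Over their whole windows, starts included, the members held 235 union regions, which are peaks of the 4 libraries merged where they overlap. A peak was present in all 4 libraries in 133 of them (56.6%), against 58.0% of the regions in all gene windows. Both WT libraries and no KO library had a peak in 13 member regions, where 2.24% of 148856 regions in gene windows had that pattern. These 13 lay in 10 members, with 3 in Map3k14, 2 in Traf5 and 1 each in Casp8, Cd27, Cd40, Tnfrsf13b, Tnfrsf1a, Tnfrsf21, Tnfrsf8 and Traf3. The opposite pattern, with peaks in both KO libraries and no WT library, was seen in 3 regions, in Cflar, Fadd and Traf2, where 1.26% of all such regions had it. Fold enrichments in the 16 regions were low, at 4.66 or less in every library with a peak.

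Coverage was compared between genotypes with limma on log2 (covered bases + 200), after scaling the libraries to equal covered totals, which keeps the fold change of genes with few covered bases small. The test included 32 members whose mean reached 500 covered bases, which left out Tnfrsf4, Tnfrsf18 and Cd27. Another protein-coding gene overlapped the windows of Tnfrsf1a (Plekhg6), Map3k14 (Spata32), Tnfrsf10b (Rhobtb2), Cd27 (Tapbpl), Tnfrsf13b (Usp22), Tbk1 (Xpot) and Tradd (Fbxl8). The same held for Tnfrsf25 (Plekhg5 and Espn), Traf4 (Fam222b and Nek8), Ltbr (Scnn1a), Ripk1 (Serpinb6a) and Tnfrsf4 (Sdf4). None of the members' WT-higher regions lay in another protein-coding gene. The log2 change, KO over WT, was below 0 in 19 members and above 0 in 13, with a median of -0.04, against -0.01 over 13998 genes tested, of which 52.3% were below 0. Without KO replicate 3 the members' median was 0.04. Without scaling, which moved the median of all genes to -0.10, 24 of the 32 members were below 0, with a median of -0.13. Scaling to equal totals removes a difference common to the whole genome, so such a difference was not tested. At an adjusted p under 0.05 limma called 0 members, as it called 0% of all genes in either direction, and the lowest adjusted p among members was 0.9999. At an unadjusted p under 0.05 there were 3 members lower in KO and 1 higher, where 2.99% of all genes were lower and 1.23% higher. Both KO libraries lay below both WT libraries in 9 members (16.6% of all genes) and above them in 4 (14% of all genes).

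Peak height was compared as the mean log2 fold enrichment over the regions of a gene with a peak in all 4 libraries, centred on the median of each library, and mean heights below are given after centring, unlike the enrichments of single peaks. The 33 members tested, all but Map3k7 and Tnfrsf4, had a median log2 change of 0.02, with 15 below 0 and 18 above, against a median of -0.01 over 15726 genes, of which 53.4% were below 0. Without centring, which moved the median of all genes to -0.18, 30 of the 33 members were below 0. Centring makes the library medians equal, so the centred changes are relative to all shared regions. A difference common to all regions was not tested. limma called 0 members at an adjusted p under 0.05 (0% of all genes in either direction). At an unadjusted p under 0.05, Tradd was lower in KO and 0 members were higher, where 2.31% of all genes were lower and 1.78% higher. Both KO libraries were below both WT libraries in 6 members (17.4% of all genes) and above them in 7 (14.1% of all genes).

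**Figure D2:**
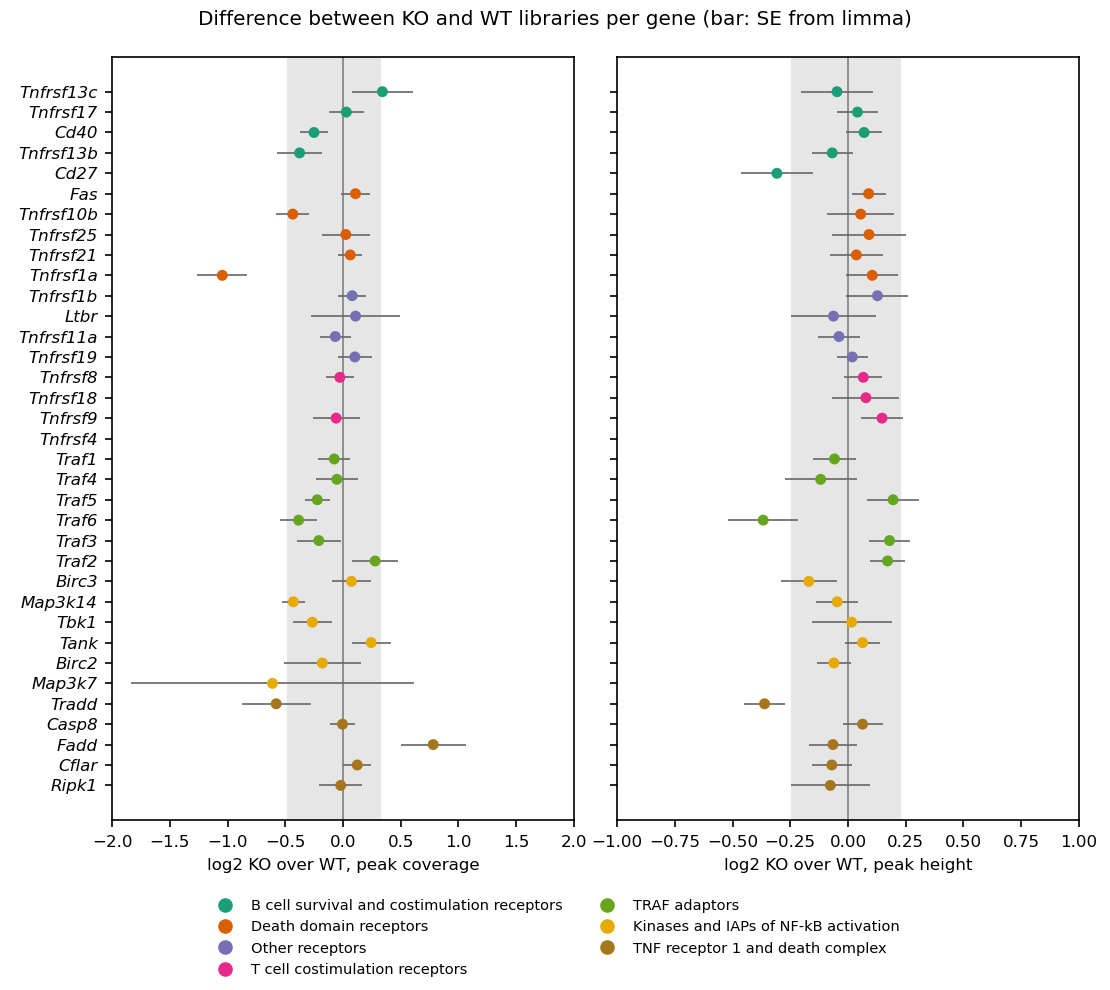
Log2 change, KO over WT, of peak coverage and of peak height for each member tested, with bars of 1 standard error, colours for roles and a grey band from the 5th to the 95th percentile of all genes tested. Most members lie within the band, while coverage of Tnfrsf1a (-1.05) and Fadd (0.78) and height of Traf6 (-0.37), Tradd (-0.36) and Cd27 (-0.31) are among those outside it.

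Single regions were tested for height in the same way. Of 133 member regions with a peak in all 4 libraries, 61 were lower and 72 higher in KO, with a median log2 change of 0.01, against -0.01 over 213431 regions. Without centring 98 of the 133 were lower in KO, and the median of all regions was -0.18. None passed an adjusted p of 0.05 with limma (0% of all regions), and the lowest adjusted p was 0.99999. At an unadjusted p under 0.05 there were 2 regions lower in KO and 3 higher (2.21% and 1.55% of all regions). Both KO libraries were below both WT libraries in 17 regions (15.6% of all regions) and above them in 21 (14.8%).

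Cd40, the receptor for the ligand on helper T cells (chromosome 2, 165055614 to 165071654 of GRCm38), had 25.8 and 19.3% of its window covered in KO libraries, against 29.2 and 28.2% in WT libraries. Both KO values were below both WT values, and after scaling the log2 change was -0.25 (standard error 0.12, unadjusted p = 0.088). The mean height of its 6 shared regions was 5.95 and 5.53-fold in KO and 5.61 and 5.33-fold in WT libraries, so height and coverage differed in direction. Cd40 held 3 WT-higher regions, the most of any member beside Tnfrsf13b. Peaks at chr2:165057607-165057881 were 5.18 and 3.20-fold in KO and 5.07 and 4.49-fold in WT libraries, which overlap. At chr2:165062889-165063123 WT replicate 3 alone had a peak, of 5.52-fold. The one at chr2:165061976-165062408 had a score of 7.38 in the authors' deposited table, with peaks of 3.19 and 2.95-fold in KO and 6.00 and 5.52-fold in WT libraries. The recovered pileups at those peaks were 39 and 34 reads in KO and 57 and 69 reads in WT libraries. A neighbouring region of Cd40, at chr2:165059480-165060489, had peaks of 8.52 and 6.24-fold in KO and 6.53 and 4.97-fold in WT libraries, a log2 change of 0.52 (standard error 0.18). The KO libraries were thus lower at one peak of Cd40 and higher at another about 2 kb away. At the second, the KO and WT ranges overlapped before centring but not after it, and its log2 change is after centring.

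Tnfrsf13c (chromosome 15, 82221742 to 82224380) is short, and its 4 regions had a peak in all 4 libraries. Its coverage gave a log2 change of 0.34 (standard error 0.26), with the lowest scaled coverage in WT replicate 3, at 2517 bases, against 4406 and 4214 in KO libraries and 4460 in WT replicate 2. The single WT-higher region, in the flank past the gene end at chr15:82221002-82221402, had peaks of 6.13 and 4.13-fold in KO and 6.73 and 2.36-fold in WT libraries, which overlap. Tnfrsf17 (chromosome 16, 11313232 to 11320074) had log2 changes of 0.03 (standard error 0.15) in coverage and 0.04 (standard error 0.09) in height. Its WT-higher region, chr16:11313738-11313937, has its midpoint 28 bases past the listed start and had no peak in any library.

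Tnfrsf13b (chromosome 11, 61126283 to 61153170) had 17.99 and 11.4% of its window covered in KO libraries, against 22.2 and 18.2% in WT libraries. Both KO values were below both WT values before scaling but not after it, and the log2 change was -0.38 (standard error 0.19, unadjusted p = 0.106). Among its 3 WT-higher regions, the one nearest the start (chr11:61126846-61127182) had peaks in all 4 libraries, of 4.30 and 3.12-fold in KO and 4.24 and 3.07-fold in WT libraries. The one at chr11:61141360-61141645 had a peak of 2.95-fold in KO replicate 2, none in KO replicate 3, and peaks of 4.14 and 3.15-fold in WT libraries. Just past it, the region chr11:61141828-61142470, which is not in the authors' table, had 9.15 and 7.55-fold in KO and 13.04 and 11.7-fold in WT libraries, a log2 change of -0.41 with both KO values below both WT values.

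Cd27, the receptor for CD70 on memory B and T cells (chromosome 6, 125232620 to 125237136), had 3.93 and 3.16% of its window covered in KO libraries, against 8.05 and 8.12% in WT libraries. Both WT libraries had a second peak, over the WT-higher region chr6:125232205-125232463 at the gene end, of 2.81 and 3.23-fold, and neither KO library had one. The peak shared by all 4 libraries was 3.50 and 3.62-fold in KO and 4.87 and 5.04-fold in WT libraries. After centring its log2 change was -0.31 (standard error 0.15, unadjusted p = 0.096), and the KO and WT values did not overlap. It was -0.15 without KO replicate 2 and -0.48 without centring.

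Tnfrsf1a (chromosome 6, 125349723 to 125362483) had the lowest log2 change in coverage of the members, -1.05 (standard error 0.22, unadjusted p = 0.004). Peaks covered 402 and 534 scaled bases in KO libraries, against 1136 and 1210 in WT libraries, and the groups did not overlap. The change was -0.57 with a pseudocount of 1000 bases and -0.30 (unadjusted p = 0.058) with 10 kb on each side of the span. The promoter peak of Tnfrsf1a was shared, while a region centred 10844 bases past the start (chr6:125360169-125360966) had no peak in KO libraries and peaks of 4.66 and 3.70-fold in WT libraries. The WT-higher region of the gene lies within it. Another region, past the gene end, lacked a peak in KO replicate 2, with 4.38-fold in KO replicate 3 and 4.56 and 5.12-fold in WT libraries. Mean height, which reads the promoter peak alone, was 5.81 and 5.65-fold in KO and 5.91 and 4.80-fold in WT libraries after centring, and did not separate the genotypes.

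Tnfrsf10b, the TRAIL receptor (chromosome 14, 69767472 to 69784411), had scaled coverage of 2021 and 1793 bases in KO libraries, against 2509 and 2788 in WT libraries, a log2 change of -0.44 (standard error 0.14, unadjusted p = 0.026). The groups did not overlap, yet the gene held 0 WT-higher regions. The change was -0.29 (unadjusted p = 0.091) with the span alone, -0.095 with peaks of at least 5-fold enrichment and -0.077 with 10 kb on each side. Fas, the death receptor that removes germinal center cells (chromosome 19, 34290647 to 34327775), had 18 regions and a coverage of 21.6 and 16.5% in KO and 19.7 and 17.8% in WT libraries, with a log2 change of 0.11 (standard error 0.13). At its WT-higher region, chr19:34301107-34301317 with a deposited score of 5.95, peaks were 2.47-fold in KO replicate 2, absent in KO replicate 3 and 3.62 and 3.15-fold in WT libraries. Tnfrsf21 (death receptor 6) had a WT-higher region at chr17:43051288-43051497, with a deposited score of 5.35 and peaks of 8.45 and 6.24-fold in KO and 10.7 and 9.30-fold in WT libraries. Those KO and WT peaks did not overlap in height. Over the whole gene the log2 change of Tnfrsf21 in coverage was 0.06 (standard error 0.11), with both KO values above both WT values. Tnfrsf25 (death receptor 3) held 0 WT-higher regions, and its change in coverage was 0.02 (standard error 0.21).

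The other receptors Tnfrsf1b (TNF receptor 2), Ltbr (lymphotoxin beta receptor), Tnfrsf11a (RANK) and Tnfrsf19 (TROY) held 0 differential regions in 26 union regions. Their log2 changes in coverage lay between -0.07 and 0.11, and in height between -0.06 and 0.13. Among receptors known for T cell costimulation, Tnfrsf8 had 9.33 and 8.91% of its window covered in KO and 9.65 and 10.3% in WT libraries, with a log2 change of -0.03 (standard error 0.12). Its WT-higher region, chr4:145299346-145299775, had a peak in WT replicate 2 alone, of 3.002-fold. Tnfrsf9 (4-1BB) and Tnfrsf18 (GITR) held 0 differential regions, with changes in height of 0.15 and 0.08.

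Traf1, an adaptor whose gene is induced by NF-kB, was the most covered of the adaptors, with 14.9 and 11.3% of its window in KO and 15.3 and 14.1% in WT libraries. The KO and WT ranges overlapped, and the change in scaled coverage was -0.08 (standard error 0.14). Its WT-higher region chr2:34943754-34944175, with a deposited score of 5.78, had peaks of 4.22 and 4.04-fold in KO and 7.56 and 4.49-fold in WT libraries. At the other, chr2:34942372-34942626, the peaks were 10.2-fold in KO replicate 2 and 2.87-fold in KO replicate 3, against 10.6 and 8.81-fold in WT libraries. KO replicate 3 alone was low there. In the merged region that holds it, KO replicate 3 had a peak of 7.25-fold, and the log2 change was 0.002 (standard error 0.185).

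Traf5, which acts beside TRAF2 downstream of CD40 and CD27, had scaled coverage of 5319 and 5244 bases in KO libraries, against 6600 and 5817 in WT libraries, a log2 change of -0.22 (standard error 0.11, unadjusted p = 0.092). Its peaks common to all libraries went the other way, at 5.03 and 4.97-fold in KO and 4.68 and 4.08-fold in WT libraries, a log2 change of 0.20 (standard error 0.11). Neither measure overlapped between the genotypes. The change in height was 0.027 without centring and 0.11 without WT replicate 3. The WT-higher region chr1:192062686-192063077 had peaks of 3.42 and 2.68-fold in WT libraries and none in KO libraries, while at chr1:192052888-192053121 only KO replicate 3 lacked a peak.

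Traf6, the ubiquitin ligase shared with Toll-like receptors, was below WT in both measures, with scaled coverage of 1079 and 1174 bases in KO libraries, against 1589 and 1474 in WT libraries (log2 change -0.38, standard error 0.16, unadjusted p = 0.059). The mean height of its 2 shared regions was 3.50 and 3.26-fold in KO and 4.02 and 4.72-fold in WT libraries (log2 change -0.37, standard error 0.15, unadjusted p = 0.054), a change of -0.24 without WT replicate 3. No WT-higher region lay in Traf6. Traf2 and Traf3, which together with the cIAP proteins direct NIK to degradation, had higher peaks in both KO libraries than in either WT library. Mean height was 5.70 and 5.82-fold in KO and 4.97 and 5.27-fold in WT libraries for Traf2 (log2 change 0.17, standard error 0.08), and 5.31 and 5.46-fold in KO and 4.58 and 4.92-fold in WT libraries for Traf3 (0.18, standard error 0.09). Without centring these changes were 0.0032 for Traf2 and 0.012 for Traf3, and with a mean enrichment of at least 5 that of Traf3 was 0.10. Traf2 also had more scaled coverage, 1252 and 1163 bases in KO libraries, against 1116 and 823 in WT libraries, a log2 change of 0.28 (standard error 0.20). That change was 0.096 without WT replicate 3, 0.17 with a pseudocount of 1000 bases, 0.46 without WT replicate 2 and 0.45 with 10 kb on each side. For Traf3 the change in coverage was -0.21 (standard error 0.19). Traf4 held 2 regions, both shared by all libraries, and a coverage change of -0.05 (standard error 0.18).

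Map3k14 encodes NIK, the kinase that starts noncanonical NF-kB signalling (chromosome 11, 103219764 to 103267401). Peaks covered 4189 and 4445 scaled bases of it in KO libraries, against 5961 and 5805 in WT libraries, without overlap, a log2 change of -0.43 (standard error 0.10, unadjusted p = 0.007). The gene had 9 peaks in each KO library and 13 and 12 in WT libraries. Within its 13 regions, the 9 shared by all libraries had mean heights of 4.83 and 4.99-fold in KO and 5.23 and 4.92-fold in WT libraries, which overlap. With equal numbers of peaks taken from each library, the change in coverage was -0.19 (unadjusted p = 0.347). The 3 regions found in both WT libraries and no KO library had enrichments of 2.52 to 3.31-fold. Both of its WT-higher regions lay in shared peaks instead, at chr11:103239811-103240032 with 5.26 and 4.30-fold in KO and 7.45 and 5.12-fold in WT libraries, and at chr11:103260670-103261025 with 7.49 and 6.57-fold in KO and 9.11 and 5.52-fold in WT libraries.

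**Figure D3:**
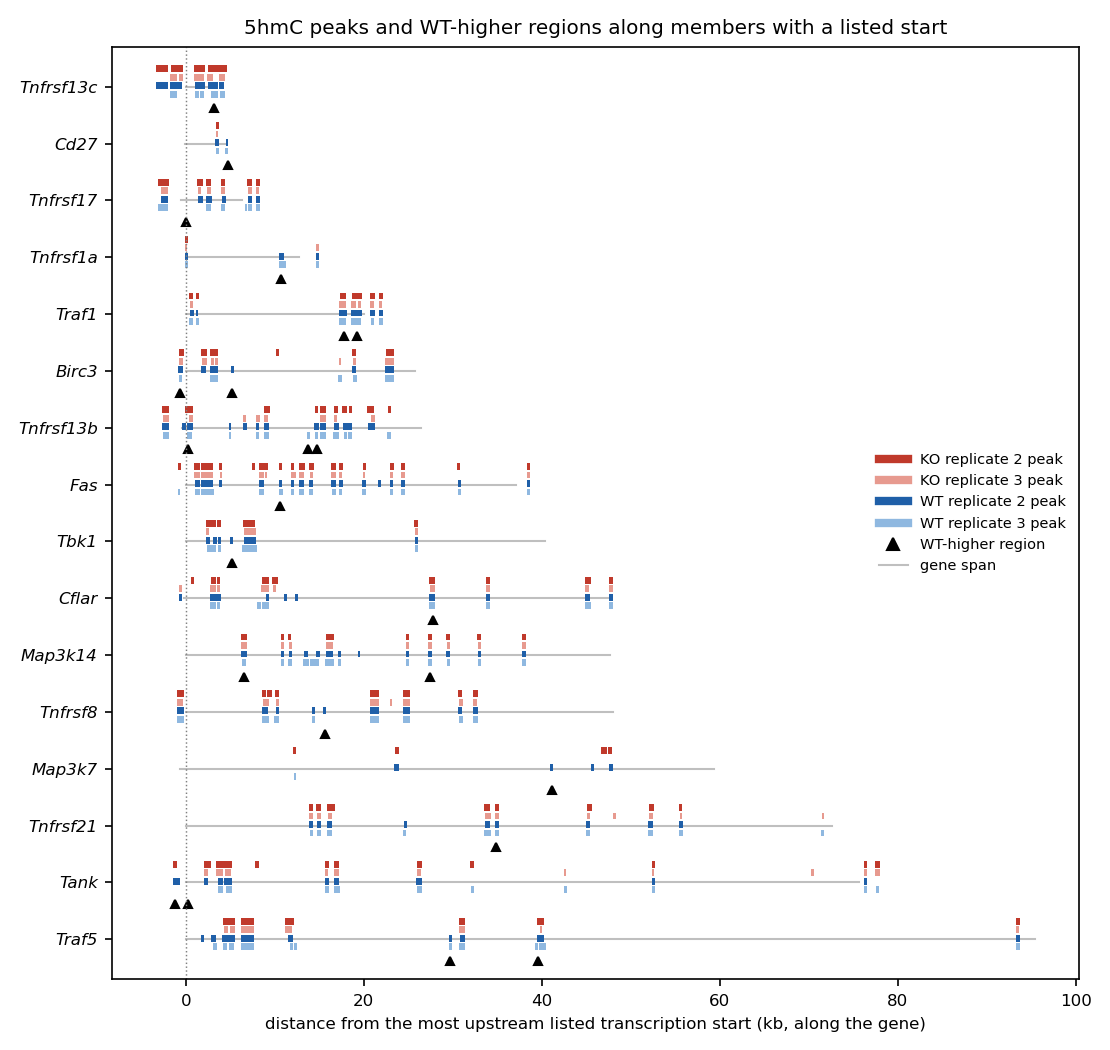
Peaks of each library (bars) and WT-higher regions (triangles) along the 16 members that hold such a region and have a listed start, in kb from the most upstream start in the direction of the gene. Bars of both WT libraries with no KO bar are seen at a triangle of Tnfrsf1a, Cd27 and Traf5, and most triangles lie far from the start.

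Map3k7 (TAK1, the kinase that activates the IKK complex) had no region with a peak in all 4 libraries. Scaled coverage of the gene came to 1874 and 0 bases in KO libraries, against 1756 and 295 in WT libraries. The replicates of each genotype lay farther apart than the genotypes, and the log2 change of -0.61 had a standard error of 1.23. Its WT-higher region, chr4:32005115-32005326, had a peak in WT replicate 2 alone, of 3.42-fold. Tank, a scaffold that binds TRAFs and TBK1, held the WT-higher region with the highest deposited score among members, 8.80, at chr2:61578668-61578879, 216 bases past the first listed start, where no library had a peak. Tank as a whole had 5782 and 5111 scaled bases under peaks in KO libraries, against 5276 and 3933 in WT libraries, with a log2 change of 0.24 (standard error 0.17), so gene and region differed in direction, and the KO and WT ranges overlapped. The change was 0.04 without WT replicate 3, 0.16 without KO replicate 2, 0.15 without scaling and 0.45 without WT replicate 2.

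Birc3, the NF-kB-induced cIAP2 gene, had 13.2 and 10.1% of its window covered in KO and 12.9 and 10.6% in WT libraries. Near its start, the WT-higher region chr9:7873641-7873921 had peaks of 3.46 and 3.29-fold in KO and 6.11 and 3.15-fold in WT libraries, high in WT replicate 2 alone. Its other WT-higher region, like the one in Tbk1 (an IKK-related kinase), had a peak in WT replicate 2 alone, of 3.61-fold in Birc3 and 4.35-fold in Tbk1. Peaks covered 7.65 and 4.67% of the Tbk1 window in KO libraries, against 7.87 and 7.72% in WT libraries, a log2 change after scaling of -0.27 (standard error 0.17). Birc2, which encodes cIAP1, held 0 differential regions, and its coverage change was -0.18 (standard error 0.33).

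Tradd, the adaptor that TNF receptor 1 recruits first (chromosome 8, 105258575 to 105264594), had the smallest unadjusted p for height among the members. Mean height over its 2 shared regions was 4.48 and 4.76-fold in KO libraries, against 6.16 and 5.72-fold in WT libraries, without overlap, a log2 change of -0.36 (standard error 0.09, unadjusted p = 0.007). Most of the gap came from the region chr8:105258773-105259545, with peaks of 3.51 and 2.61-fold in KO and 5.80 and 4.89-fold in WT libraries, a log2 change of -0.65 (standard error 0.20). Among regions with a mean enrichment of at least 5, which leave that one out, the change for Tradd was -0.05 (unadjusted p = 0.730). The region overlaps the WT-higher region chr8:105258742-105259397, with a deposited score of 7.18. Tradd had a scaled coverage of 1009 and 922 bases in KO libraries, against 2108 and 1111 in WT libraries, a log2 change of -0.58 (standard error 0.30), in which WT replicate 2 stood highest. The window of Tradd also holds part of Fbxl8.

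Fadd (chromosome 7, 144578323 to 144582441) was the member with the highest log2 change in coverage, 0.78 (standard error 0.28, unadjusted p = 0.038). Peaks covered 1008 and 959 scaled bases in KO libraries, against 354 and 655 in WT libraries, without overlap. The change was 0.47 (unadjusted p = 0.092) without WT replicate 2, 0.41 with a pseudocount of 1000 bases and 0.13 (unadjusted p = 0.375) with 10 kb on each side. A region upstream of the promoter, chr7:144583777-144584143, had peaks of 4.06 and 3.88-fold in KO libraries and none in WT libraries, and the promoter region had none in WT replicate 2. The peak in the gene body was shared, at 4.94 and 3.82-fold in KO and 5.18 and 5.04-fold in WT libraries. Fadd held 0 KO-higher regions of the authors' table.

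Casp8 (12 regions) had 10.8 and 7.63% of its window covered in KO and 9.33 and 10.2% in WT libraries, with a log2 change of -0.004 (standard error 0.11). Cflar, the gene of the caspase-8 inhibitor c-FLIP, was covered over 9.55 and 8.29% of its window in KO and 8.86 and 8.57% in WT libraries, with a change of 0.12 (standard error 0.12). Its WT-higher region chr1:58739082-58739409 had peaks of 8.92 and 5.34-fold in KO and 9.42 and 10.7-fold in WT libraries. The recovered pileups there were 147 and 97 reads in KO and 124 and 142 reads in WT libraries, which overlap. Local backgrounds were 15.6 and 17.4 reads in KO and 12.3 and 12.4 reads in WT libraries. Ripk1, the kinase that turns TNF receptor 1 signalling towards survival or death, held 2 shared regions and 0 differential regions, with a coverage change of -0.02 (standard error 0.19).

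The 28 WT-higher regions of the members were 200 to 656 bases wide (median 283.5), and their deposited scores ran from 3.58 to 8.80, with a median of 4.60 against 4.77 over all 24645 such regions. By role, 9 lay in receptors for B cell survival and costimulation, 8 in 5 of the 6 kinases and IAPs, 4 in Traf1 and Traf5, 3 in death domain receptors, 3 in Tradd and Cflar and 1 in Tnfrsf8. Of the 28, 24 lay in the gene span and 4 in the flanks, and among the 23 in genes with a listed start 5 had their midpoint within 2 kb of one. Peaks of KO libraries overlapped 16 and 12 of them, and peaks of WT libraries 24 and 20. These regions were listed by the authors because WT exceeded KO, so that gap restates the choice.

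Peaks in all 4 libraries overlapped 12 of the 28, and in 5 of those 12 both KO peaks were lower than both WT peaks, in Cd40, Tnfrsf21, Traf1, Tradd and Cflar. That count reads deposited enrichments without centring, on which the median log2 change of all shared regions was -0.18. With the centring used for heights, the KO and WT ranges of Traf1 and Cflar would overlap. In 7 of the 28 the peak was in a single WT library, 5 in replicate 2 and 2 in replicate 3, and 2 had no peak. KO replicate 3, the library with the lowest median fold enrichment, lacked a peak in 4 more in which KO replicate 2 had one. Its part in the authors' calls was not tested.

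**Figure D4:**
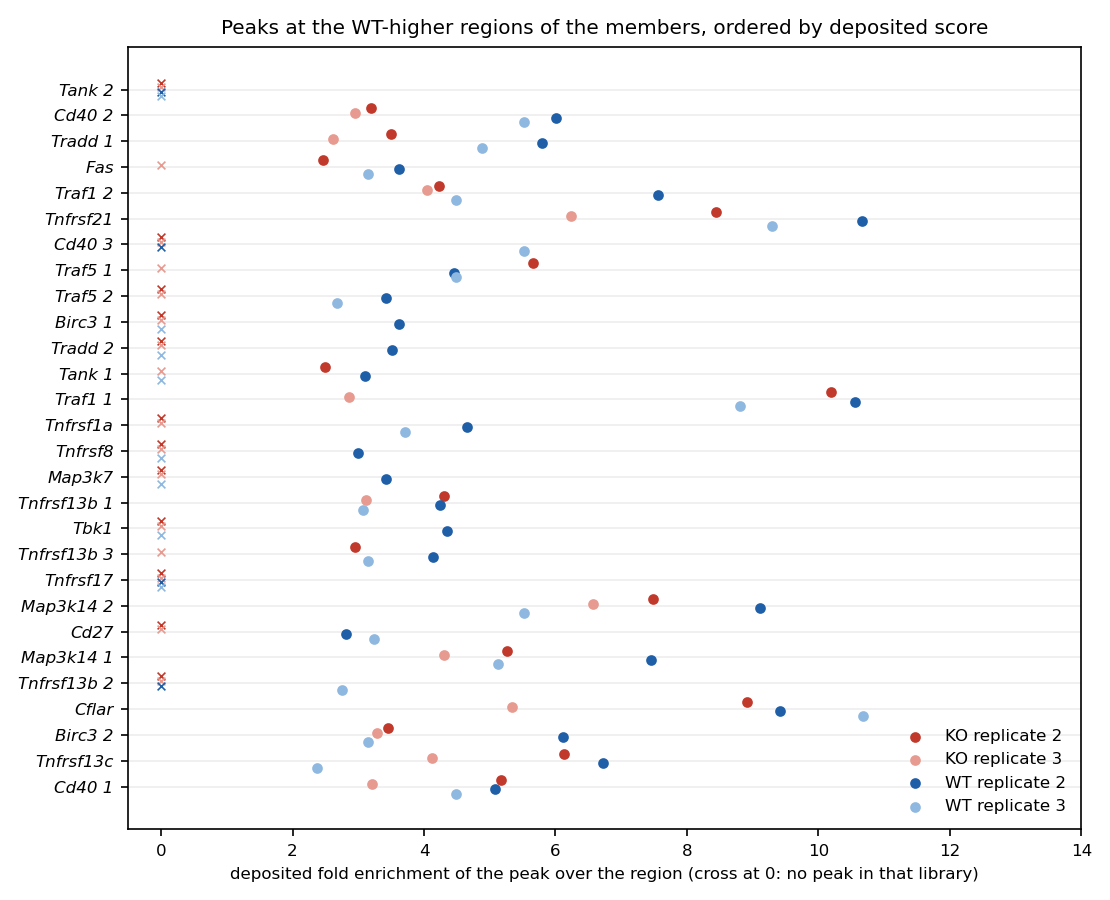
Fold enrichment of the peak over each of the 28 WT-higher regions of the members in KO and WT libraries, ordered by deposited score, with regions of a gene numbered by position along the chromosome. A cross at 0 marks a library without a peak, and the KO points lie below both WT points at a minority of regions.

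As a share, 25 of 235 union regions of the members (10.6%, 95% Wilson interval 7.31 to 15.2%) contained a WT-higher region, against 7.26% of the regions in all gene windows. The interval covers counting error only, and regions of one gene are not independent. Among regions with a peak in all 4 libraries the share was 13 of 133 (9.77%, interval 5.80 to 16.01%), against 9.59% over all such regions. In regions with a peak in fewer libraries it was 12 of 102 (11.8%, interval 6.86 to 19.4%), against 4.05%. Several of these regions share a gene, so the interval is not a test of that gap. The members' regions with shared peaks thus stood close to the background. At a deposited score of at least 5 the members' share was 2.55%, against 3.13% of the regions in all gene windows, and 8 regions lay in 7 members, where 15.8% of all genes with a peak held one.

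The other genes of the pathway, 47 ligands, receptors and signalling proteins, held 13 WT-higher regions, in 11 of the 45 with a peak (24.4%), and 0 KO-higher regions. The corresponding share of the members was 18 of 34 (52.9%). Among cell type markers with a peak it was 5 of 10 for germinal center B cells, 2 of 5 for T cells, 3 of 3 for myeloid and 0 of 3 for erythroid cells. These lists were not matched for the number of regions per gene. In coverage, 18 of the 41 other pathway genes tested were lower and 23 higher in KO (median log2 change 0.05). In height 23 of 39 were lower and 16 higher (median -0.04). limma called 0 of them at an adjusted p under 0.05, and at an unadjusted p under 0.05 it called 1 for coverage and 3 for height. None held 3 or more WT-higher regions.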

How the data were processed

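The labels describe 8 libraries of genomic DNA, 4 of them hMeDIP pulldowns and 4 inputs, and 5hmC was read from the 4 pulldowns. Per the submitters' processing notes, the tools were BWA 0.7.12-r1039 and MACS2 2.1.0.20151222 and the build GRCm38.p3; settings are not given in the sources used here. The authors deposited a separate peak list for each of the 4 libraries, none of them pooled. Each deposited list gives, per peak, a fold enrichment (a ratio over local background), a −log10 p-value, a −log10 q-value, an integer score and a summit offset. The authors also deposited tables of WT-higher and KO-higher regions with a score, whose scale, caller and libraries are not given in the sources used here. Both are the authors' own values and were used to describe peaks and regions.

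The members and gene lists were chosen with earlier results of these data known. Gene spans are those of RefSeq on GRCm38.p6, where all 35 members matched, and primary chromosomes have the same coordinates in both patches. The span table holds no exons, so exon and intron were not told apart. Covered bases per window (span plus 2 kb) were scaled so that all libraries had the same total, then tested as log2 (bases + 200) in genes with a mean of at least 500, and log2 fold enrichment of shared regions was tested after median centring, both with limma 3.58.1 (trend, robust) in R 4.3.3. P-values were adjusted by Benjamini-Hochberg over all genes or regions. Pileups were recovered as whole reads within 0.001 of the deposited −log10 p for 100% of peaks on chromosome 19. Read totals are not given in the sources used here.

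Values per library are given for members with a differential region, for those past a threshold, for the 3 of smallest unadjusted p in each direction of each gene test, and for those with a promoter peak. Single regions named beyond the differential regions were chosen after their values were seen. Alternatives were other pseudocounts, filters, scalings, windows and peak thresholds, each library left out, and the replicate block. Scripts were tested on simulated data.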

Additional observations from a re-analysis of the deposited data

How the results depend on the processing

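Under all alternatives run, limma called 0 members at an adjusted p under 0.05 for coverage, height and regions, and every member named for its gene test kept its direction, with a lowest adjusted p of 0.364; the values that moved by over 1.5 times stand beside each gene above. With −log10 p as height, on its own scale, the changes were -0.71 for Tradd, -0.56 for Traf6, -0.62 for Cd27 and 0.30 for Traf3. Leaving out each library in turn, the members' median log2 change ranged from -0.11 to 0.04 for coverage, 0.00020 to 0.04 for height and 0.00082 to 0.03 for regions, with 0 members called. The share of union regions with a WT-higher region ranged from 9.09 to 11.01% and the members with a promoter peak from 4 to 6. Without centring the medians were -0.15 for height and -0.15 for regions, and with a mean enrichment of at least 5 the height median was 0.062. A deposited score of at least 5 left 8 WT-higher regions in 7 members and a share of 2.55%. Promoter peaks numbered 2 with the stricter overlap with the window (6.25%, against 4.98% of all genes). With peaks of at least 5-fold they numbered 3 (9.4%, against 4.52%). Of 220566 regions tested without KO replicate 2, limma called 1070 lower and 32 higher, none of them in the members, although KO and WT then rest on 1 and 2 libraries and the lone one is assumed to vary like the others. It called 2 regions without KO replicate 3 and, without centring, 12 regions and 5 genes, all lower and again none of them members. With the replicate block, 0 members were called and the medians were -0.04, 0.02 and 0.01, as without it. The numbers were not taken as pairs in the main tests. Deviations of same-numbered libraries correlated at 0.0896 over genes for coverage and 0.0526 for height. These values follow scaling or centring, so they cannot show whether same-numbered libraries were handled together. The number of libraries and the background of 8.66 to 11.69 reads limit the precision.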
